A study of Mus musculus with 16 samples.

Results

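The genes described here are 29 mouse genes of cholesterol and fatty acid synthesis and its sterol control, taken by symbol from the gene rows of the deposited count files. All 29 had exactly 1 row among 30141 gene rows. All 29 also passed the filter on low counts, which left 18341 genes to test. They comprise 18 enzymes of the cholesterol branch, 7 enzymes of the fatty acid branch and 4 genes of sterol control.

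RNA was sequenced from bone marrow cells sorted as lineage-negative, Sca1-positive and Kit-positive (LSK), a fraction that holds blood stem cells and early progenitors. The 16 libraries formed 4 groups. WT with NaCl had 4 libraries and WT with azacitidine had 3, both labelled as carrying mouse WT DNMT3A on both alleles. R882H with NaCl had 4 libraries and R882H with azacitidine had 5, both labelled as carrying mouse WT DNMT3A together with human DNMT3A R882H. The human sequence was knocked in behind a lox-stop-lox cassette, and the stop was removed by Mx1-Cre, whose promoter answers interferon. Per the labels, Cre-positive and Cre-negative donors were age-matched and both received poly(I:C), an inducer of interferon, at 15 µg per g on 3 days, and their marrow was taken 4 weeks later. A further schedule of 3 injections of 400 µg is given without saying which animals had it. Donor marrow was mixed 1:1 with CD45.1 competitor marrow, and transplanted into CD45.1 recipients. From 2 weeks after transplant, recipients received azacitidine at 2.5 mg per kg or 0.9% NaCl over 2 weeks, with 5 days on, 2 days off and 5 days on. Azacitidine is a cytidine analogue; built into DNA, it binds DNA methyltransferases covalently and lowers methylation. Whether competitor cells were kept out of the sort is not stated, so every group may hold WT competitor cells. The animals' ages are not given in the labels, nor whether each library came from a separate mouse, and p-values measure the spread between these libraries.

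Cells make cholesterol from acetyl-CoA through mevalonate, squalene and lanosterol, and long-chain fatty acids from the same acetyl-CoA through malonyl-CoA. Transcription of both branches is driven by the sterol regulatory element-binding proteins: SREBP2, the product of Srebf2, acts mainly on cholesterol genes, and SREBP1, the product of Srebf1, mainly on fatty acid genes. When membranes are rich in sterols, INSIG proteins hold the SREBP precursors in the endoplasmic reticulum, and the targets are less transcribed. Dividing blood progenitors use the products for membranes.

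The promoters show which of the letters known for this control lie close to the start of these genes. Windows from 250 bases before to 50 bases after the start, from RefSeq on GRCm38.p6, were found for 23 of the 29 genes, in 28 windows, since a gene can have several starts. Sqle, Fdps, Fdft1, Stard4, Scd1 and Scd2 had no window and were not searched. In all, 4 sets of letters were searched on both strands. The sterol regulatory element TCACNCCAC was in 1.24% of all 32851 windows and in 1 of the 23 genes, Hmgcs1. The palindromic E-box CACGTG, which SREBPs also bind, was in 7.15% of all windows and in 4 of the 23 genes, namely Dhcr7, Hsd17b7, Insig1 and Sc5d. CCAAT, bound by NF-Y, was in 37.4% of all windows and in 20 of the 23 genes. GGGCGG, bound by SP1, was in 35.7% and in 19 of the 23. No searched motif is part of another, and a match is a description of letters and not of binding.

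The stretches below are a selection of the matches upstream of a start and outside annotated exons: the sterol regulatory element, 3 E-boxes, and CCAAT in Lss and Srebf1, which are among the genes higher in R882H at an unadjusted p under 0.05. They are shown 5′ to 3′ on the strand of the gene with the matched letters in capitals. Hmgcs1 carries the sterol regulatory element 137 bases before the start. Sc5d, Hsd17b7 and Insig1 carry the E-box 98, 143 and 101 bases before it. Lss carries CCAAT on the opposite strand, read here as ATTGG, 62 bases before it, and the inner start of Srebf1, in an intron of the longer transcript, carries it 30 bases before it.
Hmgcs1, chr13:119690194-119690242, plus strand: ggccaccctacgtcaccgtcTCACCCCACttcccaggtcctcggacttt
Sc5d, chr9:42264373-42264418, minus strand: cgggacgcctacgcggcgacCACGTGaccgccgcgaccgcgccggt
Hsd17b7, chr1:169969323-169969368, minus strand: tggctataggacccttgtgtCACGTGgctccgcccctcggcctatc
Insig1, chr5:28071291-28071336, plus strand: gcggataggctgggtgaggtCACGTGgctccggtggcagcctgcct
Lss, chr10:76531523-76531567, plus strand: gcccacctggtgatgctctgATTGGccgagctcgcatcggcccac
Srebf1, chr11:60210477-60210521, minus strand: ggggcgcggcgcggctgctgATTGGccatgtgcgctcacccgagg

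Total counts ran from 35860445 to 56012766 per library, of which repeat families took 2.97 to 10.1%, the most in WT with azacitidine replicate 1. LSK markers were present in every library, with the stem cell factor receptor gene Kit at 410 to 1226 CPM, meaning counts scaled to a common library total and Ly6a, which encodes Sca1, at 30.6 to 275 CPM. The fat cell genes Adipoq and Plin1 were at 0 in 11 and 10 libraries, with at most 0.165 and 0.080 CPM elsewhere. Together with Fabp4, Pparg and Lipe, the 5 listed fat cell markers with a row summed to 18.2 to 36.3 CPM per library. Mouse Dnmt3a stood at 62.9 to 146 CPM, and these mouse counts cannot check the human allele. R882H with NaCl replicates 1 and 2 had 809 and 1507 CPM of summed erythroid markers, against 78.5 to 301 in the other 14 libraries. Replicate 1 of that group also led in the mean log2 CPM of T and NK cell markers, at 4.27 against at most 2.25 elsewhere. It did not lead in their summed CPM, at 580 against 901 in WT with azacitidine replicate 2. Libraries numbered 1 and 2 had ribosomal protein gene scores above those of the higher numbers in 3 of the 4 groups, and the meaning of the numbers is not given in the labels. In such bulk samples, fewer cells of a type and less RNA per cell cannot be told apart.

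Of the 29 genes, Acly and Srebf2 led in level per length, and Scd1 came last. Levels are the authors' FPKM values, which divide counts by gene length and library size. Acly, ATP citrate lyase, which releases acetyl-CoA from citrate for both branches, stood at 47.7 ± 15.4 FPKM (SD, n = 16). Srebf2 followed at 31.6 ± 6.65 FPKM, then the desaturase gene Scd2 at 27.5 ± 7.49, the sterol isomerase gene Ebp at 26.3 ± 5.19 and Srebf1 at 25.1 ± 4.82. These neighbours overlap in their ranges over libraries, so their order is not firm. Lower down, Lss stood at 2.09 ± 0.48 FPKM, Tm7sf2 at 1.73 ± 0.37 and Hsd17b7 at 1.25 ± 0.32. At the bottom were Acaca at 0.69 ± 0.22, Fdps at 0.64 ± 0.14 and Scd1 at 0.26 ± 0.38. Acly exceeded 94.98% of all gene rows in mean FPKM, and Scd1 exceeded 47.47%.

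**Figure D1:**
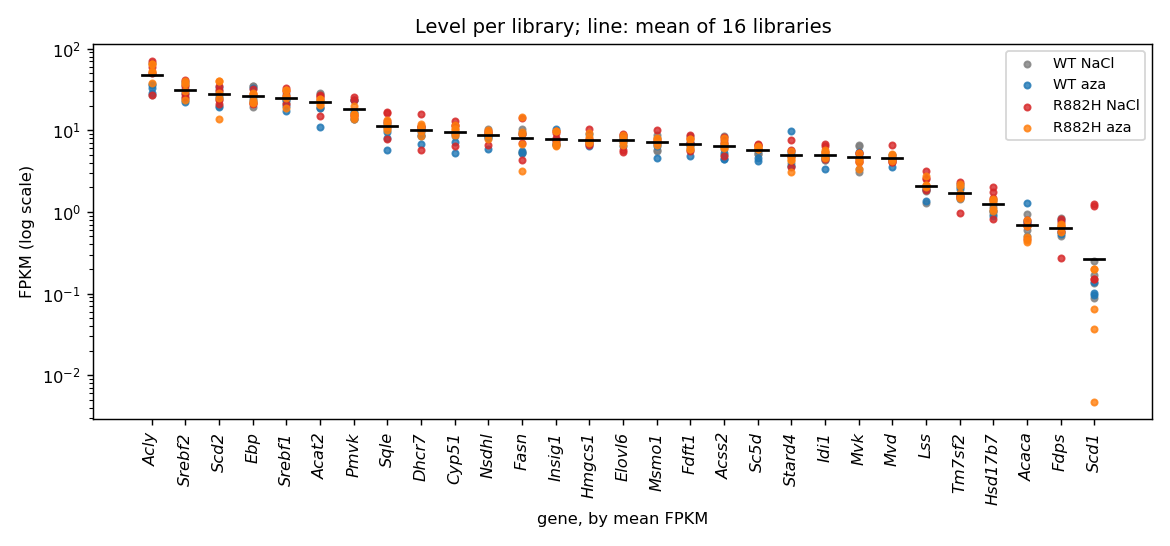
FPKM (vertical axis, log scale) of the 29 genes in order of their mean, with 1 point per library coloured by group and a black line at the mean of 16 libraries. Most genes stay within a few-fold range, while Scd1, in last place, spreads from 0.0046 to 1.23 FPKM.

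The low values of Fdps and Acaca come with near copies that can take reads. Fdps, which makes farnesyl diphosphate, had a median of 121 counts, while the processed pseudogene Gm3571, 98.9% identical over 1062 bases of transcript, had 237.5 and the pseudogene Gm5873 had 34. Acaca, the acetyl-CoA carboxylase that makes malonyl-CoA, matches the pseudogene Gm5182 at 99.2% over 6118 bases, with medians of 515 and 45.5 counts. Acat2 matches Acat3 at 97.7% and Idi1 the pseudogene Gm13502 over its whole aligned stretch of 684 bases, but these copies had medians of 15.5 and 10.5 counts beside 2664 and 751. Fdps also shares 1124 exonic bases, 26.7% of its own, with the protein-coding gene Gm43738 on the same strand, which held 0 to 2 counts. Fdft1 shares 774 exonic bases, 18.3% of its own, with Ctsb on the opposite strand, and Tm7sf2 shares 532 with Vps51 on the same strand. How the authors treated reads with several positions, and strand, is not given in the sources used here, so the levels of Fdps, Acaca, Fdft1 and Tm7sf2 are uncertain. For Acat2 and Idi1, the low count of the copy does not show whether shared reads were left out of both genes.

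The first comparison asked whether LSK cells with the R882H allele differed from WT in these genes, averaged over both treatments. Sc5d, Lss, Sqle, Idi1, Cyp51, Acly, Acss2 and Srebf1 were each higher in R882H by 0.28 to 0.46 on the log2 scale, at an unadjusted p under 0.05. None passed the threshold of an adjusted p under 0.05 (edgeR's quasi-likelihood test with Benjamini-Hochberg adjustment): 0 of 29 were called, against 1 of 18341 genes, or 0.00545%. At an unadjusted p under 0.05, 8 of the 29 were higher, where 4.04% of all genes tested were, and 0 were lower, where 3.93% of all genes were. Of the 29 differences, 21 were positive, with a median of 0.15, beside a median of -0.0025 over all genes tested. In the cholesterol branch 13 of 18 differences were positive (median 0.13), in the fatty acid branch 5 of 7 (median 0.25) and in sterol control 3 of 4 (median 0.13). DESeq2 and limma-voom also called 0 of the 29 here. The count of 8 leaned on 1 library, WT with azacitidine replicate 1. Without that library the count was 2, where 3.64% of all genes were higher. With a replicate block it was 4, where 3.18% of all genes were higher. Without any single library it ran from 2 to 10, and the share of all genes from 2.59 to 8.25%. It was 5 when any one of these was left out: replicate 1 or 5 of the R882H azacitidine group, replicate 3 or 4 of the R882H NaCl group, replicate 2 of the WT azacitidine group, or replicate 1 of the WT NaCl group. In those settings 2.59 to 4.07% of all genes were higher. Without R882H with NaCl replicates 1 and 2, the libraries high in erythroid markers, it was 10, where 12.7% of all genes were higher. The number of positive differences stayed between 20 and 25 in every setting run.

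**Figure D2:**
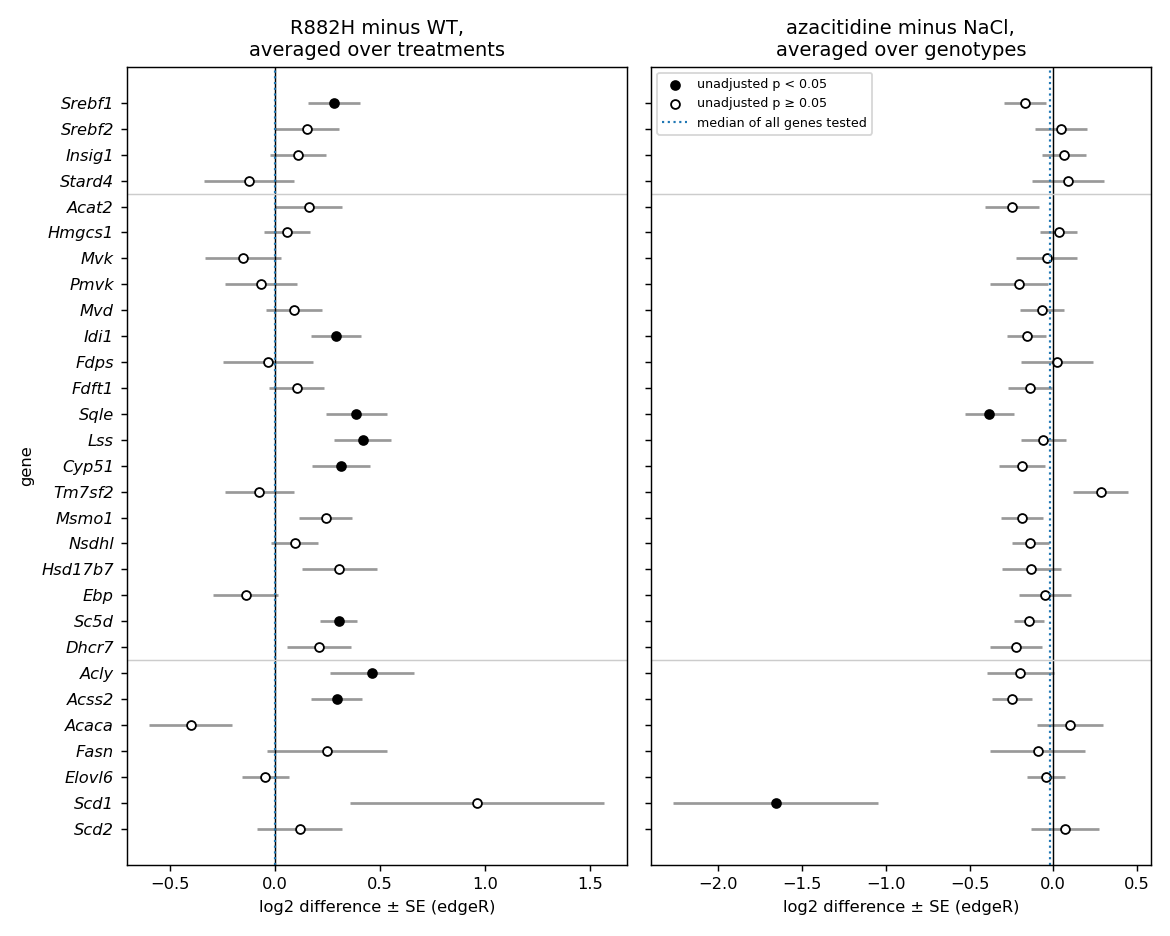
Log2 difference and its SE (edgeR) of each of the 29 genes for R882H against WT averaged over treatments (left) and azacitidine against NaCl averaged over genotypes (right), with filled points at an unadjusted p under 0.05 and a dotted line at the median of all genes tested. On the left 21 genes lie above 0 and 8 points are filled; on the right 8 lie above 0 and 2 are filled.

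Sc5d encodes the sterol desaturase of a late step, on chromosome 9 (GRCm38, chr9:42251595-42264256, minus strand). It stood at 26.1, 26.8, 29.4 and 27.2 CPM in WT with NaCl and at 21.7, 23.4 and 29.6 in WT with azacitidine. The R882H libraries held 35.4, 34.7, 31.9 and 34.1 CPM with NaCl and 31.0, 29.6, 29.9, 30.0 and 32.2 with azacitidine. All 9 R882H libraries lay above the WT median, and the ranges of the genotypes met at 29.6 CPM. Counts above the WT median were taken for the 29 genes only, here and below, so no share of all genes stands beside them. The averaged log2 difference was 0.30 (SE 0.09, adjusted p = 0.62 by edgeR), rank 96 by p of all genes tested. Over the alternatives the difference went from 0.25 to 0.38 and its adjusted p from 0.053 to 0.962. Within libraries numbered 1 and 2 the difference of mean log2 CPM was 0.41, and within those numbered 3 and above 0.14.

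Lss, lanosterol synthase, folds oxidised squalene into the sterol ring (chr10:76531588-76557138, plus strand). WT with NaCl held 21.1, 15.1, 20.1 and 21.3 CPM, and WT with azacitidine 15.9, 24 and 22. R882H with NaCl held 21.7, 36.7, 28.1 and 28.6 CPM, and R882H with azacitidine 30.1, 22.5, 24.4, 24 and 23.1. All 9 R882H libraries again lay above the WT median, and the NaCl groups did not overlap. The averaged difference was 0.42 (SE 0.14, adjusted p = 0.62), with 0.54 within numbers 1 and 2 and 0.28 within numbers 3 and above.

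Sqle, squalene epoxidase, carries out the oxygen-dependent step before Lss (chr15:59315077-59331192, plus strand). It stood at 71.6, 61.7, 70.2 and 62.7 CPM in WT with NaCl and at 34.3, 48.0 and 56.1 in WT with azacitidine. The R882H values were 47.4, 101, 73.3 and 92.8 CPM with NaCl and 75.2, 58.7, 64.6, 64.6 and 71.2 with azacitidine. WT with azacitidine lay below every library of WT with NaCl and of R882H with azacitidine, while R882H with NaCl spread widely around WT with NaCl. The averaged genotype difference was 0.39 (SE 0.15, adjusted p = 0.62), and within number sets it was 0.38 and 0.28.

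Idi1, which isomerises the first isoprenoid unit, averaged 17.1 ± 1.39 CPM in WT with NaCl (n = 4) and 15.6 ± 2.72 in WT with azacitidine (n = 3), against 21.4 ± 3.64 (n = 4) and 18.7 ± 1.74 (n = 5) in R882H. Cyp51, the lanosterol demethylase, averaged 42.4 ± 1.81 and 34.5 ± 9.68 CPM in WT, against 48.8 ± 12.2 and 46.2 ± 4.52 in R882H. Both had overlapping genotypes, with WT libraries reaching 19.0 CPM of Idi1 and 44.3 CPM of Cyp51. R882H with NaCl replicate 1 held 17.3 CPM of Idi1 and 31.2 CPM of Cyp51. Other R882H libraries lay in the WT range too, such as azacitidine replicate 4 at 16.4 CPM of Idi1 and azacitidine replicate 2 at 39.9 CPM of Cyp51. The averaged differences were 0.29 for Idi1 (SE 0.12) and 0.31 for Cyp51 (SE 0.14), each with an adjusted p of 0.62 by edgeR.

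**Figure D3:**
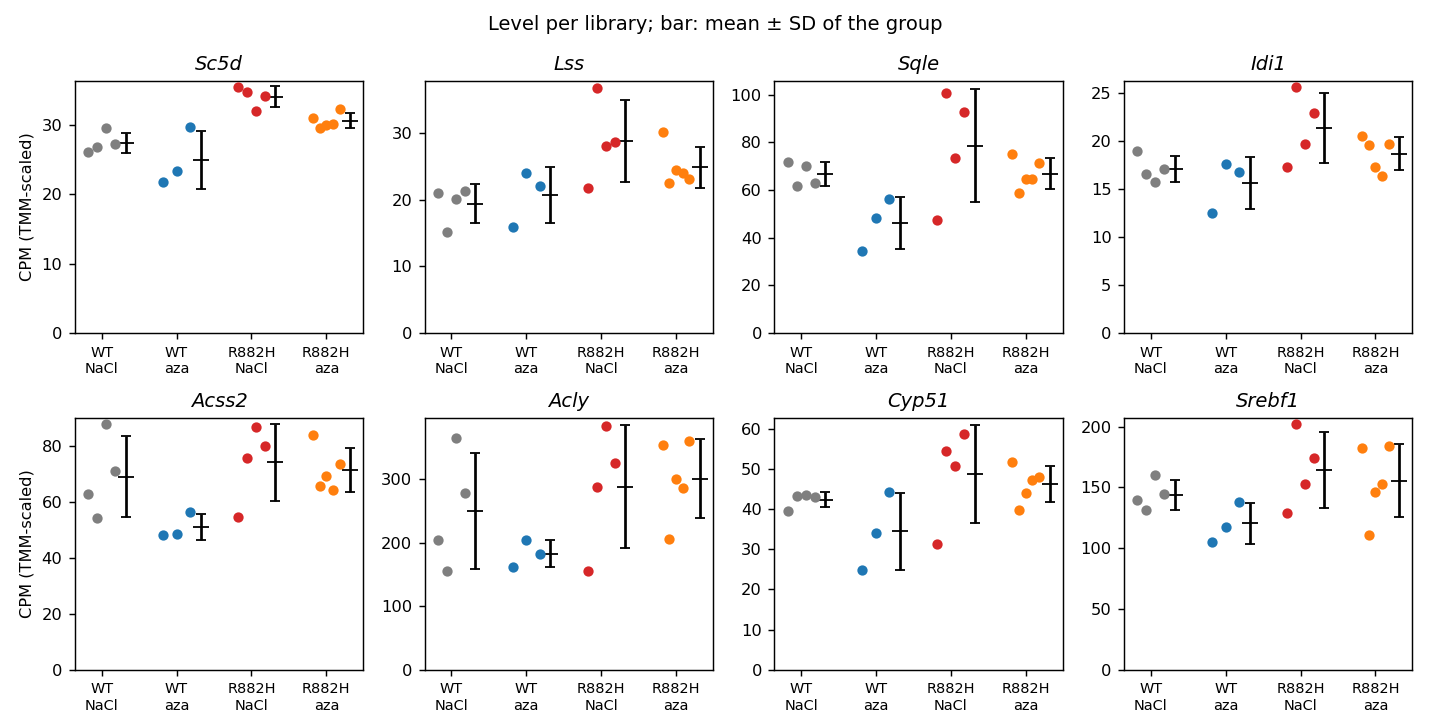
CPM (vertical axis, from 0) of the 8 genes at an unadjusted p under 0.05 for R882H against WT averaged over treatments, with 1 point per library in replicate order and a bar at the mean ± SD of each of the 4 groups. The R882H libraries of Sc5d and Lss sit at or above the upper part of the WT range, while R882H with NaCl replicate 1 is the lowest of its group for every gene shown but Sc5d.

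None of the other cholesterol genes was at an unadjusted p under 0.05 for genotype, and most had overlapping groups. Hmgcs1, which makes the precursor of mevalonate, held 32.4 to 49.1 CPM in R882H and 31.1 to 43.9 CPM in WT. It alone of the 23 genes searched carried the sterol regulatory element letters. Its averaged group levels were 34.9 ± 1.34 CPM in WT with NaCl, 37.6 ± 6.38 in WT with azacitidine, 38.2 ± 7.51 in R882H with NaCl and 37.1 ± 4.21 in R882H with azacitidine. Fdps ran from 2.70 ± 1.06 to 2.87 ± 0.722 CPM over the 4 groups, and squalene synthase, Fdft1, from 27.6 ± 4.95 to 32.6 ± 5.77. Neither gene separated any pair of groups. Dhcr7, the last reductase of one arm of the pathway, ran from 36.6 CPM in R882H with NaCl replicate 1 to 99.2 in replicate 2 of the same group. That group held the lowest and the highest of the 16 libraries for Dhcr7 and for Tm7sf2, a sterol reductase (5.90 and 14.2 CPM). Msmo1 and Hsd17b7 had 8 and 7 of 9 R882H libraries above the WT median. Mvk and Pmvk, the mevalonate kinases, had 2 and 3 of 9, and Ebp had 4. Nsdhl, Mvd and Acat2, the thiolase of the first step, had 7, 6 and 8. As for Sc5d and Lss, the share of all genes with counts like these was not taken.

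Among the sterol control genes, Srebf1 was the one at an unadjusted p under 0.05. It stood at 139, 132, 160 and 144 CPM in WT with NaCl and at 105, 118 and 138 in WT with azacitidine. R882H libraries held 129, 202, 153 and 174 CPM with NaCl and 183, 111, 147, 153 and 184 with azacitidine. The genotypes overlapped widely, and the averaged difference was 0.28 (SE 0.12, adjusted p = 0.62). Srebf2 averaged 220 ± 42.8, 228 ± 67.9, 246 ± 47.2 and 252 ± 50.5 CPM in WT with NaCl, WT with azacitidine, R882H with NaCl and R882H with azacitidine. Its highest and lowest WT libraries were both of the azacitidine group, at 302 and 168 CPM. Insig1, the anchor that SREBP induces and that holds SREBP back, ran from 20.6 to 34.4 CPM, and its group means lay between 22.6 ± 1.91 and 27.9 ± 2.79. Stard4, a soluble sterol carrier, was highest in WT with azacitidine replicate 1 at 59.1 CPM and next in R882H with NaCl replicate 1 at 46.8, against at most 34.3 elsewhere.

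In the fatty acid branch, Acly and Acss2, which both supply cytosolic acetyl-CoA, were the 2 genes higher in R882H at an unadjusted p under 0.05. Acly stood at 204, 155, 364 and 278 CPM in WT with NaCl and at 162, 203 and 183 in WT with azacitidine. R882H held 155, 288, 384 and 324 CPM with NaCl and 353, 206, 300, 285 and 360 with azacitidine. The NaCl groups overlapped over almost their whole range, and the azacitidine groups did not overlap, though 203 and 206 CPM lay close together. The averaged difference of Acly was 0.46 (SE 0.20, adjusted p = 0.62). Acss2, acetyl-CoA synthetase, averaged 68.9 ± 14.3 and 50.9 ± 4.65 CPM in WT with NaCl and azacitidine, against 74.1 ± 13.7 and 71.2 ± 7.89 in R882H, a difference of 0.29 (SE 0.12, adjusted p = 0.62).

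Acaca went the other way, with means of 12.4 ± 3.75 and 17.0 ± 5.58 CPM in WT and 12 ± 2.71 and 10.1 ± 2.71 in R882H. WT with azacitidine replicate 1 alone held 23.5 CPM of Acaca, the highest of 16. Fasn, fatty acid synthase, spread from 35.9 to 165 CPM, both within R882H with azacitidine, and its group means lay from 77.4 ± 24.6 to 98.1 ± 45.2. The library lowest in Fasn, R882H with azacitidine replicate 2, was also lowest in Insig1 and Scd2 and had 627 CPM of summed mature neutrophil markers, against 2.28 to 9.13 in the other 4 of its group. The part of those cells in the low values was not tested. Elovl6, which lengthens the products of Fasn, had group means from 48.7 ± 11.3 to 54.5 ± 3.15 CPM, with 4 of 9 R882H libraries above the WT median.

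Under NaCl alone, R882H was higher than WT for Lss, Scd1 and Sc5d at an unadjusted p under 0.05. The log2 differences were 0.57 for Lss (SE 0.19, adjusted p = 0.80), 2.12 for Scd1 (SE 0.84, adjusted p = 0.81) and 0.31 for Sc5d (SE 0.12, adjusted p = 0.81). Again 0 of 29 were called by edgeR, against 0.00545% of genes tested, and 0 by DESeq2. These 3 of 29 compare with 3.64% of all genes higher, and 0 of 29 were lower, where 1.96% of all genes were. Positive differences numbered 23 of 29, with a median of 0.13 beside 0.03 for all genes. Groups did not overlap for Lss and Sc5d, both higher in R882H, where 0.878% of all genes had such a pattern, and for 0 members in the other direction, where 1.09% of all genes did.

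Under azacitidine, Acss2, Sqle, Acly and Sc5d were higher in R882H than in WT, and Acaca lower, at an unadjusted p under 0.05. Acss2 differed by 0.48 (SE 0.17), Sqle by 0.54 (SE 0.21), Acly by 0.72 (SE 0.29), Sc5d by 0.29 (SE 0.13) and Acaca by -0.76 (SE 0.28), each with an adjusted p of 0.53 by edgeR. The test called 0 of 29, against 0.00545% of genes tested, and DESeq2 also called 0. At that threshold the 4 higher genes compare with 2.65% of all genes, and the 1 lower gene with 6.69%. In all 20 of 29 differences were positive, with a median of 0.14 beside -0.02 for all genes. Acly, Acss2 and Sqle had groups that did not overlap, higher in R882H, as did 5.05% of all genes; 0 members did so in the lower direction, where 5.66% of all genes did. WT with azacitidine replicate 1 bears on these values, since without it Acaca moved to -0.46 and Sqle to 0.36. Without WT with azacitidine replicate 3, Sc5d moved to 0.44.

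The next comparison was azacitidine against NaCl. In WT, Sqle and Acss2 were lower with azacitidine, by -0.53 (SE 0.22) and -0.44 (SE 0.18) on the log2 scale, each with an adjusted p of 0.83 by edgeR. Tm7sf2, the next by p, was 0.44 higher (SE 0.25, adjusted p = 0.87). The test called 0 of 29 and 0% of all genes, and DESeq2 called 0 of the 29. At an unadjusted p under 0.05, 0 of 29 were higher, where 3.99% of all genes were, and 2 were lower, where 2.03% were. Of the differences, 10 were positive, with a median of -0.13 beside 0.01 for all genes. Dhcr7, Nsdhl and Sqle did not overlap between groups, lower with azacitidine, as did 2.79% of all genes, and Tm7sf2 did not overlap in the higher direction, as did 2.94%. Tm7sf2 stood at 8.50, 8.85, 9.26 and 9.29 CPM with NaCl and at 13.2, 12.1 and 11.2 with azacitidine, and its neighbour Vps51, with which it shares bases, held 5.46 to 8.64 CPM over all libraries.

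In R882H, Scd1 was the 1 gene of the 29 at an unadjusted p under 0.05, lower with azacitidine by -2.81 (SE 0.80, adjusted p = 0.415). The edgeR test called 0 of 29, against 0.00545% of all genes, while DESeq2 called 1, Scd1, at -2.83 with an adjusted p of 0.036, among 97 of 18341 genes that DESeq2 called, or 0.529%. Over the alternatives run, the adjusted p of Scd1 went from 0.036 to 0.906. The 1 lower gene compares with 4.45% of all genes, and 0 of 29 were higher, where 2.24% of all genes were. Pmvk and Sc5d followed by p, at -0.34 (SE 0.23, adjusted p = 0.81) and -0.16 (SE 0.12, adjusted p = 0.82). Pmvk moved to -0.19 without R882H with NaCl replicate 2 and to 0.082 without replicates 1 and 2. Positive differences numbered 7 of 29, with a median of -0.09 beside -0.04 for all genes, and 15 of the 18 cholesterol enzymes were negative. Groups did not overlap for 0 members in the higher direction, where 1.09% of all genes did not, and for 0 in the lower, where 0.485% did not.

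Scd1 and Scd2 encode stearoyl-CoA desaturases, which put the double bond into palmitate and stearate. Scd1 (chr19:44394455-44407879, minus strand) stood at 6.29, 6.42, 0.742 and 0.749 CPM in R882H with NaCl and at 0.980, 0.183, 0.0235, 0.321 and 1.01 in R882H with azacitidine. WT libraries held 0.681, 1.31, 0.430 and 0.843 CPM with NaCl and 0.719, 0.487 and 0.513 with azacitidine. The high values are those of replicates 1 and 2 of R882H with NaCl, the libraries with 809 and 1507 CPM of erythroid markers. Erythroid markers summed to 101 to 301 CPM in WT with NaCl, 142 to 212 in WT with azacitidine and 117 to 177 in R882H with azacitidine. All 10 erythroid markers were lower with azacitidine in R882H at an unadjusted p under 0.05, and none of them was at 0 in every library, though Slc4a1 was at 0 in 5. Without those 2 libraries the azacitidine difference of Scd1 in R882H was -0.58 (adjusted p = 0.906) and its genotype difference under NaCl was -0.12 (adjusted p = 0.960). Scd1 rests on 1 to 250 counts per library, and its transcript matches that of Scd2 at 95.5% over 623 bases.

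**Figure D4:**
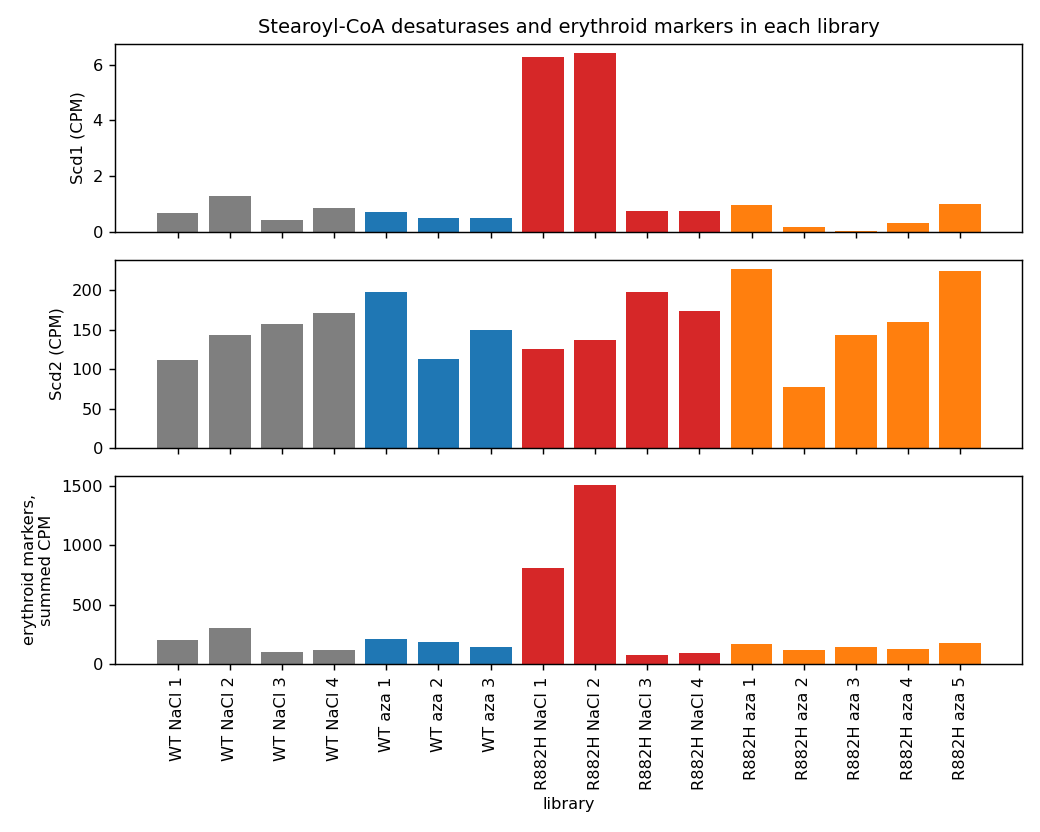
CPM of Scd1 (top), of Scd2 (middle) and summed CPM of 10 erythroid markers (bottom) in each of the 16 libraries, coloured by group, with all axes from 0. R882H with NaCl replicates 1 and 2 carry 6.29 and 6.42 CPM of Scd1 and 809 and 1507 CPM of erythroid markers, while Scd2 is not raised in them.

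Scd2 (chr19:44293674-44306864, plus strand) was the main desaturase of these cells, at 77.1 to 227 CPM. The group means were 146 ± 25.5 CPM in WT with NaCl, 154 ± 42.5 in WT with azacitidine, 159 ± 33.4 in R882H with NaCl and 167 ± 62.7 in R882H with azacitidine. The lowest and the highest library were both R882H with azacitidine, replicates 2 and 1. Scd3 and Scd4, the remaining mouse desaturases of this family, reached at most 0.472 and 0.550 CPM.

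Averaged over genotypes, azacitidine against NaCl gave lower Scd1 and Sqle at an unadjusted p under 0.05, by -1.66 (SE 0.61, adjusted p = 0.52) and -0.38 (SE 0.14, adjusted p = 0.55). Acss2 followed at -0.25 (SE 0.12, adjusted p = 0.75). Without R882H with NaCl replicates 1 and 2, the libraries high in erythroid markers, Scd1 was at -0.54 (adjusted p = 0.67; over the alternatives, 0.165 to 0.853). The edgeR test called 0 of 29, against 4 of 18341 genes, or 0.0218%, and DESeq2 called 0 of the 29. The 2 lower genes compare with 3.85% of all genes, and 0 of 29 were higher, where 3% of all genes were. Positive differences numbered 8 of 29, with a median of -0.13 beside -0.02 for all genes tested. For Acat2, all 8 azacitidine libraries lay below the NaCl median, and for Elovl6 7 of 8 did, with the ranges overlapping in both. Their averaged differences were -0.25 (SE 0.16, adjusted p = 0.92) and -0.045 (SE 0.11, adjusted p = 0.999) by edgeR. Other genes went the other way, with 1 of 8 below the NaCl median for Lss and 2 of 8 for Tm7sf2. The share of all genes with such counts was not taken.

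The difference between the azacitidine responses, R882H minus WT, was tested directly. Stard4 (-0.84, SE 0.43), Scd1 (-2.31, SE 1.18) and Acaca (-0.71, SE 0.39) had the lowest p of the 29, each with an adjusted p of 0.76 by edgeR. The test called 0 of 29 and 0% of all genes, and DESeq2 called 0 of the 29. At an unadjusted p under 0.05, 0 of 29 were higher, where 1.16% of all genes were, and 0 were lower, where 4.92% were. The 29 differences had 15 above 0 and a median of 0.0013, beside -0.05 over all genes. Without WT with azacitidine replicate 1, Stard4 moved to -0.34 and Acaca to -0.41. Without R882H with NaCl replicates 1 and 2, Scd1 moved to -0.067 and Stard4 to -0.41. These contrasts share groups, so their values are given side by side and are not set against each other.

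Single libraries set many of the extremes. R882H with NaCl replicate 2 was the highest of 16 for 8 of the 29 genes, among them Lss, Sqle, Idi1, Srebf1 and Scd1, and R882H with NaCl replicate 4 for 6, among them Cyp51, Hmgcs1 and Fdft1. Replicate 2 also had the highest score of dividing-cell genes, 8.18 in mean log2 CPM against at most 7.88 elsewhere, and the lowest score of LSK markers, 6.33 against at least 6.69. WT with azacitidine replicate 1, with the largest share of repeat counts, was the lowest of 16 for 11 of the 29, among them Sqle, Sc5d, Idi1, Cyp51, Acss2 and Srebf1, and the highest for Acaca, Insig1 and Stard4. R882H with NaCl replicate 1 was lowest for 5. The part of division, sort purity or repeat counts in the levels was not tested. The mean log2 CPM of the 29 genes was 4.92 ± 0.04 in WT with NaCl, 4.83 ± 0.05 in WT with azacitidine, 5.09 ± 0.18 in R882H with NaCl and 4.92 ± 0.18 in R882H with azacitidine. These group means lie within the span of the R882H libraries alone, 4.75 to 5.30.

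**Figure D5:**
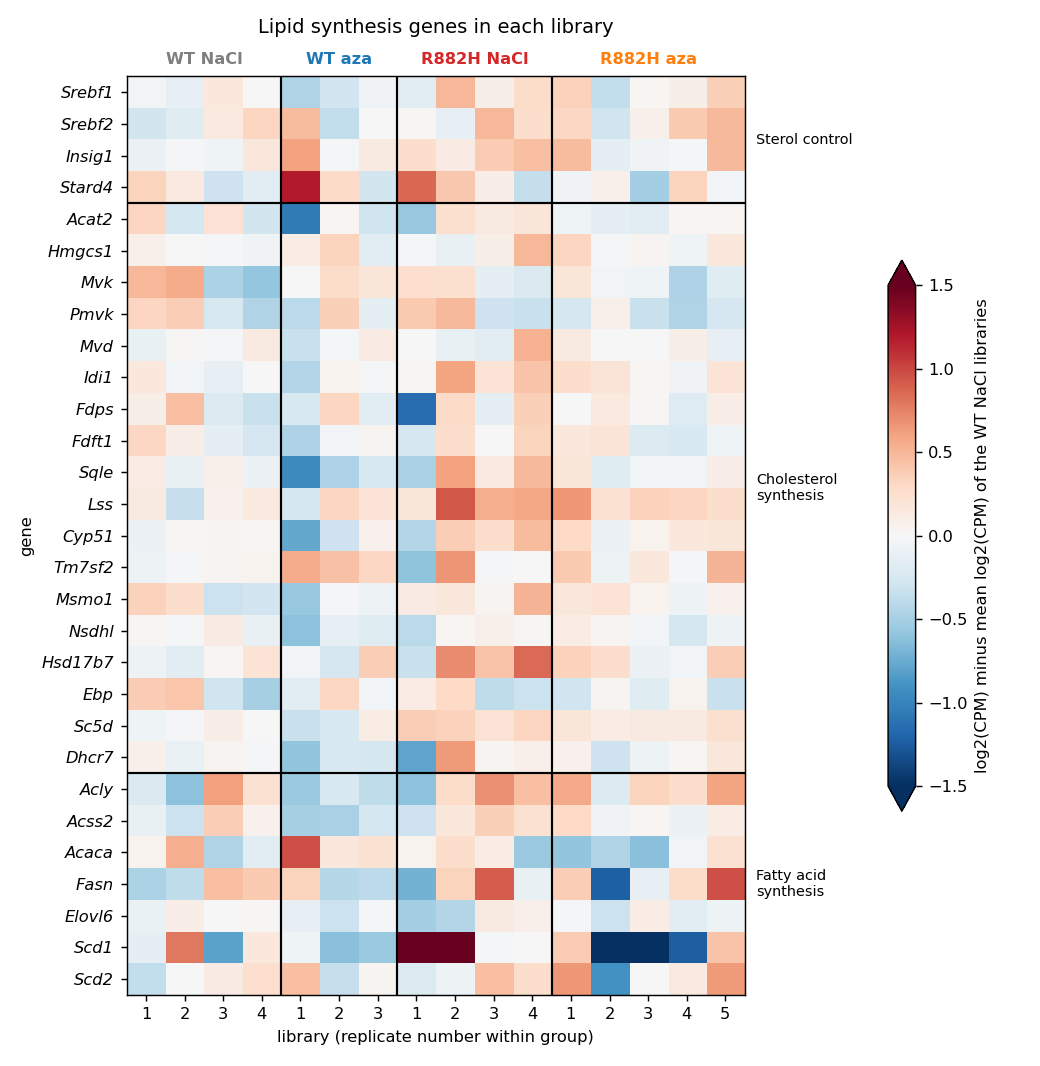
Colour gives log2 CPM minus the mean log2 CPM of the WT with NaCl libraries for the 29 genes (rows, by role) in the 16 libraries (columns, by group and replicate number), with the scale ending at 1.5 in each direction. R882H with NaCl replicate 2 is red over most cholesterol genes, and WT with azacitidine replicate 1 is blue over 11 genes where it is the lowest of 16.

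Replicate number also went with some of the genes. Ebp, Pmvk, Stard4 and Scd1 were higher in numbers 1 and 2 than in the higher numbers in 4 of 4 groups. How many of all genes tested kept 1 direction in the 4 groups was not counted. Ebp, for instance, averaged 85.7 against 49.5 CPM in WT with NaCl and 75.1 against 50.8 in R882H with NaCl. In the azacitidine groups the gap was small, at 69.1 against 63.3 CPM in WT and 59.9 against 58.9 in R882H. Acly, Cyp51 and Elovl6 were lower in numbers 1 and 2 in all 4 groups, some by very little. Dhcr7 and Srebf1 were lower in mean log2 CPM in all 4 groups. In R882H with NaCl, however, their mean CPM was higher in numbers 1 and 2, at 67.9 against 66.0 for Dhcr7 and 166 against 163 for Srebf1. Acly averaged 179 against 321 CPM in WT with NaCl and 221 against 354 in R882H with NaCl, but 182 against 183 in WT with azacitidine and 279 against 315 in R882H with azacitidine. Within numbers 1 and 2 the median genotype difference of the 29 genes, averaged over treatments, was 0.12, and within numbers 3 and above, where WT with azacitidine has 1 library, it was 0.18.

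Genes of the same pathway outside the 29 were counted in the same genotype contrast, where 4.04% of all genes tested were higher and 3.93% lower at an unadjusted p under 0.05. Of 18 other genes of cholesterol synthesis and sterol control tested, 0 were at an unadjusted p under 0.05 for R882H averaged over treatments, and 11 were positive, with a median of 0.13. Of 23 other genes of fatty acid synthesis and desaturation, 4 were higher in R882H at an unadjusted p under 0.05 and 0 lower, with a median of 0.16. They were Gpam (0.72, SE 0.30) and Lpin1 (0.54, SE 0.20), which act in glycerolipid synthesis, Fads3 (0.61, SE 0.26) and Hacd3 (0.36, SE 0.14), each with an adjusted p of 0.62 by edgeR. Of 9 genes listed for cholesterol export or as targets of the liver X receptor, 1 was higher (Smpdl3a, 0.26, SE 0.10). Of 22 genes of fatty acid oxidation, 1 was higher (Cpt1c, 0.86, SE 0.31) and 1 lower (Hadh, -0.19, SE 0.08). Fads3 held 30.5 and 51.6 CPM in R882H with NaCl replicates 1 and 2, against 9.80 to 18.9 elsewhere. Hacd3 and Lpin1 were highest in replicate 2 of that group, at 181 and 76.5 CPM, against at most 98.2 and 53.6 elsewhere. Cpt1c held 6.88 and 7.39 CPM in its replicates 1 and 2, and 7.63 in R882H with azacitidine replicate 1, against at most 4.02 elsewhere. Gpam was highest in R882H with NaCl replicate 3, at 32.6 CPM.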

How the data were processed

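The 29 genes and the pathway and marker lists were chosen with earlier results of these data known. Reads were aligned with HISAT2 2.0.5 and counted with featureCounts 1.6.2 on GRCm38, also called mm10, and edgeR 3.26.6 was used, per the submitters' processing notes; design, strand and multi-mapping settings are not given in the sources used here. Per the labels' protocols, RNA with a RIN under 8 was excluded and libraries came from pre-amplified cDNA, so amplified reads are not independent molecules and intervals cover the spread between libraries. The deposited raw counts hold 30141 genes and 1201 repeat families per library, and the deposited lengths are another unit, bases per counted feature. The deposited FPKM values are, as tested on the files, those counts divided by length and 1 library size each. Symbols and coordinates came from GENCODE M21 on GRCm38, and 30100 gene rows matched. Exonic length differed from the counted length for Tm7sf2, Scd1 and Scd2.

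Genes were kept by filterByExpr, scaled by TMM and fitted with edgeR 4.0.16 (R 4.3.3) over all 16 libraries with 1 coefficient per group; an adjusted p under 0.05 over 18341 genes was a call, and the common dispersion was 0.166. CPM is TMM-scaled. The model was tested on simulated data. Same-numbered libraries of the 2 genotypes under NaCl deviated together from their group means (correlations 0.101 to 0.342 in 4 pairs). Different-numbered libraries of these groups did so as well within numbers 1 and 2 and within numbers 3 and 4 (0.258 to 0.313). The correlations therefore do not show a pairing by single number, and no label gives one. For the other groups at least 1 same-numbered pair was under 0.1. No 2 libraries of a group were alike within sampling noise (lowest chi-square per gene 42.0). Near copies were transcripts at 95% identity or more over at least 500 bases (blastn). Alternatives were DESeq2 1.42.0, limma-voom (limma 3.58.1), RLE scaling, no filter, a replicate block, a term for replicate number, each contrast's groups alone and leaving out libraries; leaving out R882H with NaCl replicates 1 and 2 was added after seeing the data. Text names members at an unadjusted p under 0.05, or the 3 lowest p, per contrast, and a set of 13 genes with levels in every group. Some genes of the pathway are not reported here.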

Additional observations from a re-analysis of the deposited data

Results flagged for a closer look

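In groups of 4 or 5 libraries, 87 pairs of a gene and a group were checked for a library far from the rest of its group, and 4 were found; chance gives about 1 in 20 groups. Lss reached 30.1 CPM in R882H with azacitidine replicate 1, against 22.5 to 24.4 in the other 4 libraries of the group. Cyp51 was at 39.7 CPM in WT with NaCl replicate 1, against 43.0 to 43.5 in the other 3. R882H with NaCl replicate 1 held 20.8 CPM of Nsdhl, against 27.9 to 29.1, and 41.6 CPM of Acat2, against 68.0 to 72.8. That library had the lowest total count of the 16. It also stood apart in the mean log2 CPM of T and NK cell markers, though not in their summed CPM. The part of depth and of such cells in these values was not tested.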

How the results depend on the processing

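The limits are those of the libraries: variation between libraries of a group was large (biological coefficient of variation 40.7%), depth was at least 35860445 counts, and Scd1 and Fdps rest on few counts. Differences of single members kept direction and side of the threshold in 707 values. The exceptions were Scd1, called by DESeq2 in R882H, and 6 changes of sign. Without R882H with NaCl replicates 1 and 2, Pmvk moved to 0.082 for azacitidine in R882H and Scd1 to -0.12 for genotype under NaCl. Without these and WT with azacitidine replicate 1, the values were 0.087 and -0.12, and in the difference between responses Stard4 moved to 0.11 and Scd1 to 0.15. The cause was not tested.

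Genes called, over all tested, were few and unstable. DESeq2 called 97 for azacitidine in R882H (1 of the 29 genes among them), 53 for azacitidine in WT, 28 for genotype under NaCl, 21 for genotype under azacitidine, 12 for the difference, 169 for azacitidine averaged and 43 for genotype averaged. Limma-voom called 0 for genotype under azacitidine. With no filter, with replicate 1 of both the R882H NaCl and the WT azacitidine group left out, or with each contrast's groups alone, 0 were called for azacitidine in R882H and for both single genotype contrasts. With replicate number as a term (1 and 2 against higher), 2 were called for azacitidine in R882H, 2 for genotype under NaCl, 0 for genotype under azacitidine and 14 for azacitidine averaged. Without R882H with NaCl replicates 1 and 2, chosen after seeing the data, 0 were called for azacitidine in R882H, 0 for genotype under NaCl and 102 for azacitidine averaged. Without these and WT with azacitidine replicate 1 the counts were 2, 0 and 18, and 0 for genotype under azacitidine.

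Leaving out each library in turn gave 0 to 1 genes for azacitidine in R882H and for both single genotype contrasts, 0 to 7 for azacitidine in WT and 2 to 46 for azacitidine averaged. The highest values, 7 and 46, came without WT with azacitidine replicate 3; azacitidine averaged gave 23 without R882H with NaCl replicate 2, 9 without its replicate 1, and 2 without its replicate 3 or 4 or WT with NaCl replicate 4. Of the 29 genes, 2 to 10 were higher in R882H averaged at an unadjusted p under 0.05, where 2.59 to 8.25% of all genes were. The median of the 29 genes moved to 0.14 in libraries numbered 1 and 2 and to -0.15 in those numbered 3 and above for the difference between responses, and to 0.033 in the latter for azacitidine in WT.

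With a replicate block, 4 of the 29 genes rather than 8 were higher in R882H averaged at an unadjusted p under 0.05, where 3.18% of all genes were, and 0 genes were called for azacitidine in R882H and for genotype under azacitidine. For genotype under NaCl, the block left 1 gene called and 0 of the 29. Over all groups, same-numbered correlations ran from -0.124 to 0.345. The block changed no call of a member.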
